A study of Rattus norvegicus with 16 samples.

Results

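Group B was compared with Group A in the subjective day, the part of the circadian cycle in which mothers with intact clocks are mostly inactive. The comparison rests on 8 of the 16 RNA-Seq libraries of the series, chosen by their labels alone, namely CT0, CT3, CT6 and CT9 of each group (4 libraries against 4). CT is circadian time in hours, and the other 8 libraries, CT12 to CT21, cover the subjective night. Each library holds pooled suprachiasmatic nuclei (SCN) of the fetuses of 1 litter of Wistar rats, punched from frozen brain sections. The labels give embryonic day 17 and pools of 8, whereas the methods give a later day close to birth and pools that varied in Group B.

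Group A mothers had sham surgery and were fed ad libitum, while Group B mothers had their own SCN destroyed by electrolytic lesion and had food for a restricted part of each day. All mothers were kept in constant darkness after surgery. The lesion and the feeding regime always occurred together, so that their effects cannot be told apart here. Circadian time was also set differently, CT12 being the onset of free-running activity in Group A and the start of food access in Group B. The paper describes the lesioned mothers as behaviorally arrhythmic in constant darkness. In Group B the libraries of the subjective day come from hours without food. The paper also reports slightly more activity when food was present in most of these mothers, and assigns the mostly inactive state to the subjective day. How far these hours were a rest phase was not examined here. As each group has 1 litter at each time, the spread within a group contains both the differences between litters and any change from CT0 to CT9.

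The SCN are the central clock of mammals and lie in the hypothalamus above the optic chiasm. In the adult they receive light information from the retina and set the timing of other tissues through neuronal and hormonal outputs. Fetal SCN still lack most synapses, and time reaches them from the mother, through hormones, metabolites and her cycle of feeding and activity. Scheduled feeding is a strong time signal for peripheral tissues and remains available to an animal without SCN. The comparison in the subjective day asks whether expression in the fetal SCN differs between these maternal states while neither group of mothers is in its main feeding phase.

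The data are counts of reads per Ensembl gene, with 10047500 to 18738585 counts per day library. After a filter of at least 1.5 CPM (counts scaled to a common library size) in at least 3 of the 16 libraries, 13685 genes were tested. Gene symbols could not be assigned to the Ensembl identifiers with the reference tables at hand. Named pathways, clock genes and markers of SCN or other cell types were therefore not analysed, and the dissected tissue was not tested against markers. As a check for a library deposited more than once, the counts of day libraries of a group were compared in pairs. No repeat was found (chi-square per gene of 6.32 to 17.8, where counting noise alone gives about 1 and an identical copy less). Pairs across the groups were not compared in this way.

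In the subjective day the fetal SCN transcriptomes of both groups were close to each other, and no gene passed the test between them. edgeR's quasi-likelihood test called 0 of 13685 genes at a Benjamini-Hochberg adjusted p of 0.05 (0% called, lowest adjusted p = 0.606). An unadjusted p below 0.05 was found for 689 genes (5.03%), of which 375 (2.74%) had higher and 314 (2.29%) lower values in Group B. A share of about 0.05 would be found if no gene differed. With limma, 0 genes were called and 682 (4.98%) had an unadjusted p below 0.05. The Wald test of DESeq2 called 12 of the 13153 genes to which it gave an adjusted p (0.0912%), while 612 (4.47%) were below 0.05 before adjustment. All 12 had lower levels in Group B and 0 had higher ones. In bulk tissue, fewer cells of a type and less RNA per cell cannot be told apart as the basis of a lower level.

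The 12 genes lay at the top of the edgeR ranking as well, with unadjusted p from 8.42e-05 to 0.00111. Their fitted log2 fold changes of Group B over Group A were between 0.26 and 4.07 in size, and their mean levels ran from 3.19 to 327 CPM. In 10 of them every library of Group B lay below every library of Group A. Over all tested genes this was so for 184 of 13685 (1.34%). DESeq2 picked these genes from the same 8 libraries, so their edgeR ranks and the lack of overlap describe them and support nothing further. This count of 12 depended on single litters. It was 44 without the CT9 library of Group A, 26 without the CT3 library of Group B, 14 without the CT3 library of Group A, 7 without Group B CT6, 4 without Group B CT0, 3 without Group A CT0, 2 without Group A CT6, and 1 without Group B CT9. The direction depended on single litters as well, since genes with higher levels in Group B made up 11 of the 44, 9 of the 26, 4 of the 14, 1 of the 7 and 1 of the 3. Of the 12 genes, 10 were again called without Group A CT9 and without Group B CT3, but only 1 without Group B CT9. In the edgeR test, leaving out Group A CT9 gave 2 called genes (lowest adjusted p = 0.0214), both lower in Group B, and leaving out Group B CT3 gave 1 (adjusted p = 0.0019), which was higher.

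**Figure D1:**
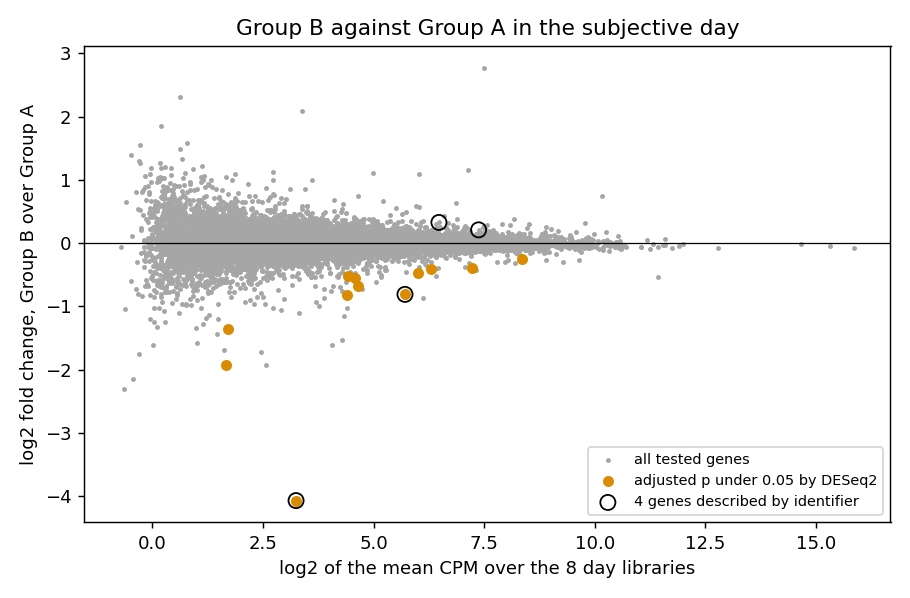
Log2 fold change of Group B over Group A in the subjective day (y axis) against the log2 of the mean CPM over the 8 day libraries (x axis), with 1 point per tested gene (13685 genes). The 12 genes that DESeq2 called (filled orange) all lie below 0, the 4 genes described by identifier are circled, and most genes lie close to 0, with a wider scatter at low levels.

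The differences between the groups were small. The median size of the log2 fold change was 0.078 over all genes, with quartiles of the signed values at -0.071 and 0.085 and a median of 0.0021. Half-widths of the 95% interval of the difference, from limma on log2 CPM, had a median of 0.24 on the log2 scale. For 10214 genes (74.6%) the whole interval lay within a 1.5-fold difference in either direction, and for 91.4% it lay within a 2-fold difference. Precision followed the level of expression. Among 4186 genes at 50 CPM or more, 98.7% of the intervals were within 1.5-fold, against 84.8% of 6921 genes at 5 to 50 CPM and 8.34% of 2578 genes under 5 CPM. For most of these low genes, 4 litters a group thus gave an interval that reached past 1.5-fold. These intervals are for single genes and unadjusted, so they do not say which differences the adjusted edgeR test would call. At 50 CPM or more too, a fitted difference past 1.5-fold could stay uncalled, as for ENSRNOG00000000010 below (adjusted p = 0.606 by edgeR).

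A fitted difference of more than 1.5-fold was found for 363 genes (2.65%), 191 of them higher and 172 lower in Group B. Most of these, 299, had a mean level under 5 CPM. In 60 of the 363 genes the libraries of both groups did not overlap (29 higher and 31 lower in Group B). Over all tested genes there was no overlap in 401 (2.93%), of which 217 (1.59%) were higher and 184 (1.34%) lower in Group B. At 50 CPM or more, 7 genes differed by more than 1.5-fold, of which 5 had higher values in Group B. The groups overlapped in all 5 of these, while 1 of the 2 lower genes had no overlap. That gene was ENSRNOG00000000010.

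Of the genes with higher and with lower values in Group B, the 2 with the lowest p in each direction are described by identifier, among genes with a mean of at least 5 CPM. They are ENSRNOG00000000010 and ENSRNOG00000007765 with lower and ENSRNOG00000017969 and ENSRNOG00000005003 with higher values, and their function is not given because they could not be paired with symbols. These genes were picked for their p in this comparison, so their day values describe them and add no further support. None of the 4 passed the adjusted threshold in the edgeR test.

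ENSRNOG00000000010 had the lowest p of all genes. Its level in Group A was 72.8 CPM at CT0, 49.7 at CT3, 79.4 at CT6 and 64.4 at CT9, and in Group B it was 44.4 at CT0, 42.0 at CT3, 34.2 at CT6 and 32.1 at CT9. The Group B value was the lower one at 4 of 4 times, and the groups did not overlap, with the smallest gap at CT3. The mean was 66.6 ± 12.8 CPM in Group A and 38.2 ± 5.93 CPM in Group B (SD, n = 4 litters each), a log2 fold change of -0.81, with an adjusted p of 0.606 by edgeR and 7.13e-05 by DESeq2. The 95% interval from limma was -1.09 to -0.49.

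ENSRNOG00000007765 had the largest fold difference of all tested genes and the least even values. In Group A its level was 30.4 CPM at CT0, 10.6 at CT3, 28.3 at CT6 and 2.25 at CT9, and in Group B it was 0.995 at CT0, 1.85 at CT3, 1.40 at CT6 and 0.269 at CT9. The 3 litters of Group A from CT0 to CT6 stood far above the others, and the CT9 litter of Group A was only slightly above the highest litter of Group B. These levels rest on 28 to 345 counts in Group A and on 5 to 20 counts in Group B. The mean was 17.9 ± 13.7 CPM in Group A and 1.13 ± 0.671 CPM in Group B (SD, n = 4), which is a level 16.8-fold higher in Group A in the fit (log2 fold change -4.07). The estimate by limma was smaller, at -3.45, with a wide 95% interval of -4.98 to -1.92. The adjusted p was 0.606 by edgeR and 0.02 by DESeq2. Without the CT9 library of Group A, the low one, the adjusted p by edgeR was 0.0214, and with any of the other 7 day libraries left out it was 0.427 to 0.996.

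The 2 genes with higher values in Group B differed by less. ENSRNOG00000017969 had 75.7 CPM at CT0, 82.5 at CT3, 71.0 at CT6 and 87.4 at CT9 in Group A, and 91.7 at CT0, 100.8 at CT3, 105.8 at CT6 and 98.7 at CT9 in Group B. Every litter of Group B was above every litter of Group A, although the highest of Group A and the lowest of Group B were close. The mean was 79.1 ± 7.24 CPM in Group A and 99.2 ± 5.86 CPM in Group B (SD, n = 4), a log2 fold change of 0.33 (95% interval from limma 0.17 to 0.48), with an adjusted p of 0.707 by edgeR and 0.0518 by DESeq2.

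ENSRNOG00000005003 had 159.8 CPM at CT0, 150.7 at CT3, 151.4 at CT6 and 154.1 at CT9 in Group A. In Group B it had 175.4 at CT0, 186.0 at CT3, 179.2 at CT6 and 172.0 at CT9. This was the evenest of the 4 genes within each group, and the groups did not overlap. The mean was 154.0 ± 4.10 CPM in Group A and 178.1 ± 6.01 CPM in Group B (SD, n = 4), which is a log2 fold change of 0.21 (95% interval from limma 0.11 to 0.31). The adjusted p was 0.707 by edgeR and 0.0768 by DESeq2.

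**Figure D2:**
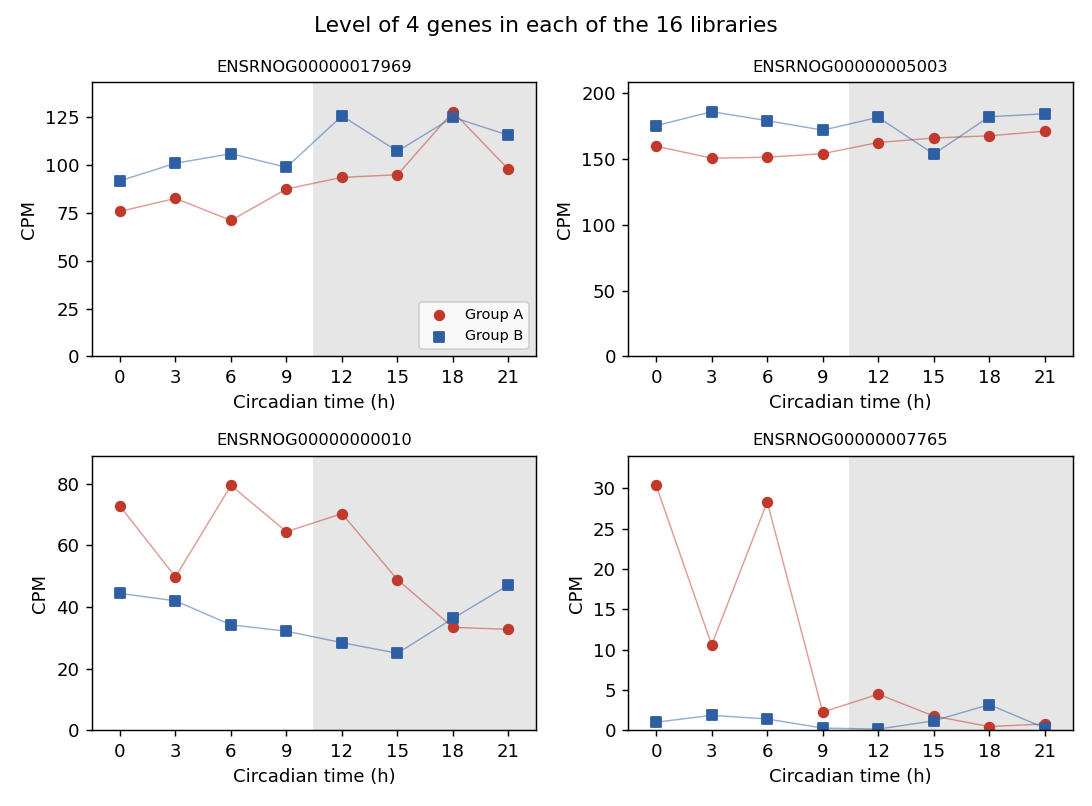
Level in CPM (y axes, linear from 0) of the 4 genes against circadian time in hours (x axes), with 1 point per library (Group A red circles, Group B blue squares, subjective night shaded, lines joining different litters). In the unshaded day the groups do not overlap in any of the 4 genes. In the night the points of both groups overlap in each gene, and ENSRNOG00000007765 was at or below 4.47 CPM in every night library.

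Each circadian time was also taken alone, with 1 litter against 1 and thus without a test. Most of the genes past 1.5-fold at any time were past it at 1 time only. Single libraries are noisier than group means, and pairs of libraries of the same group were not counted for comparison. Among 11107 genes with a mean of at least 5 CPM, 487 (4.39%) differed by more than 1.5-fold at CT0, 447 (4.02%) at CT3, 655 (5.90%) at CT6 and 426 (3.84%) at CT9. The prevailing direction differed between the pairs of litters, and with 1 pair at each time, time and litter cannot be told apart. Higher values in Group B prevailed at CT0 (354 higher and 133 lower) and at CT3 (327 and 120), whereas lower values prevailed at CT6 (184 higher and 471 lower) and at CT9 (156 and 270). Of the 1335 genes past 1.5-fold at any of the 4 times, 906 were past it at 1 time only, and 249 were past it in opposite directions at different times. Only 5 genes were past 1.5-fold in the same direction at all 4 times, 1 higher and 4 lower in Group B, and ENSRNOG00000007765 was 1 of the 4.

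**Figure D3:**
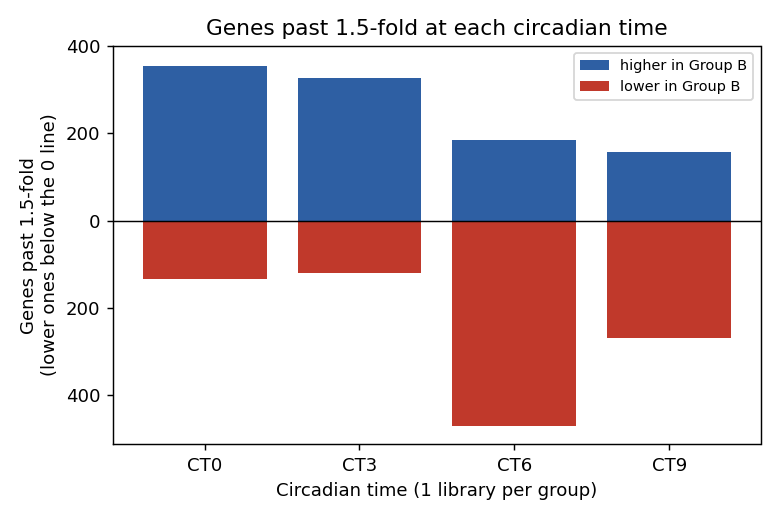
Number of genes (y axis) that differed by more than 1.5-fold between the 2 litters sampled at each circadian time (x axis), higher in Group B above the 0 line and lower in Group B below it, among 11107 genes. Higher genes outnumber lower ones at CT0 and CT3, and lower ones outnumber higher ones at CT6 and CT9.

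The litters of the subjective day did not sort by group. The mean Pearson correlation of log2 CPM across genes was 0.9814 between litters of the same group and 0.9817 between litters of different groups, and only 2 of the 8 litters had their closest match in their own group. The difference of -3.1e-04 gave p = 0.429 over the 70 assignments of litters to groups (exact permutation test, one-sided). On the first principal component (33.3% of the variance) the litters of both groups were mixed. Group A CT6 (score -27.7) and Group B CT3 (-27.4) lay together at its low end, and Group B CT9 (30.5) and Group A CT0 (16.4) at its high end. The group means on it were -2.62 and 2.62 (exact permutation test, two-sided, p = 0.714, adjusted p = 0.714 over 3 components).

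The second component (15.5% of the variance) came closest to a separation of the groups. Its scores in Group A were 29.5 at CT0, 5.99 at CT3, 5.26 at CT6 and -7.51 at CT9, and in Group B they were -1.48 at CT0, -7.62 at CT3, -12.7 at CT6 and -11.4 at CT9. Group A CT9 lay among the litters of Group B. The exact permutation p was 0.0571, with 0.171 after adjustment over the 3 components, and the smallest p that 4 against 4 litters can give is 0.0286. For the third component (12.5% of the variance) p was 0.171 (adjusted 0.257).

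**Figure D4:**
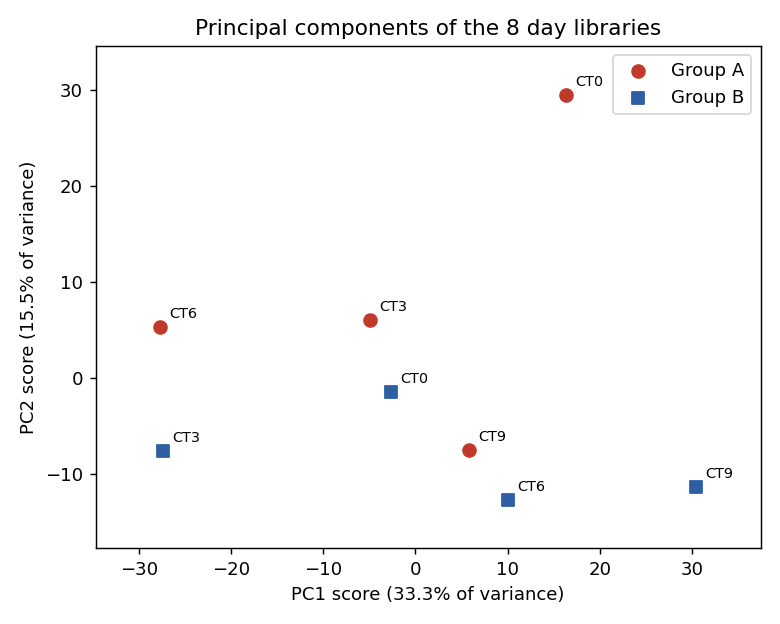
Scores of the 8 day libraries on the first (x axis, 33.3% of the variance) and second (y axis, 15.5%) principal component of log2 CPM, labelled by circadian time (Group A red circles, Group B blue squares). Both groups spread over the first axis, and on the second axis Group A CT9 lies among the Group B libraries.

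The spread between the litters of a group was also measured. Group A had a median standard deviation of log2 CPM over genes of 0.151 and Group B one of 0.139, and 46.4% of the genes varied more in Group B. Leaving out 1 litter of Group A gave medians from 0.134 (without CT6) to 0.146 (without CT3), and leaving out 1 litter of Group B gave 0.130 to 0.133. The difference in spread was not tested.

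Whether a difference belonged to the subjective day was examined with the 8 litters of the subjective night, which the day comparison had not used. The difference between day and night in the effect of the group was tested in all 16 libraries. Here edgeR called 0 genes (0%), the lowest adjusted p being 0.212, while 569 genes (4.16%) reached an unadjusted p below 0.05. DESeq2 called 1 gene (0.00731%, adjusted p = 0.017), which was not among the 4 genes described by identifier, and gave 528 genes (3.86%) an unadjusted p below 0.05. For the comparison of the groups in the night itself, the adjusted p by edgeR was 0.335 or more for every gene, which gave 0 calls. Before adjustment, 748 genes (5.47%) were below 0.05. All night values come from the fit of all 16 libraries with 1 shared spread, unlike the day test in the 8 day libraries. In that same fit the day comparison gave 0 calls (lowest adjusted p = 0.416 by edgeR) and 770 genes below 0.05 before adjustment.

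Over all tested genes, the sign of the difference was the same in day and night for 53.1%. It was the same for 430 of the 689 genes with an unadjusted day p below 0.05 (62.4%), namely for 69.1% of the 375 with higher and 54.5% of the 314 with lower values in Group B. The share over all tested genes was not split by direction, so the shares by direction have no background to be read against. The night differences of these genes were small, with a median of 0.039 in the direction of the day, where the median size in the day was 0.32. These genes were picked on their day values, so the sizes in day and night are not on an equal footing. Of the 12 genes that DESeq2 called, 9 kept their sign in the night, 0 had an unadjusted night p below 0.05, and all 12 had a smaller difference in the night than in the day.

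**Figure D5:**
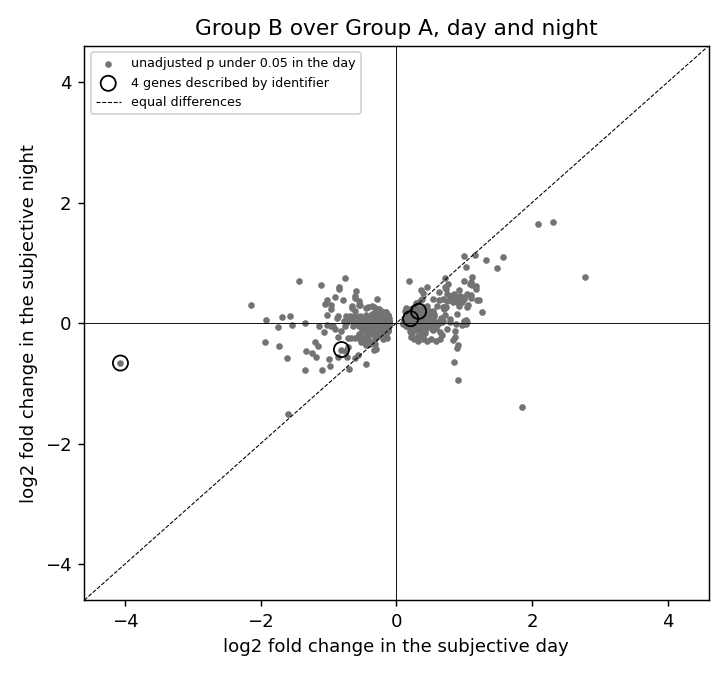
Log2 fold change of Group B over Group A in the subjective night (y axis) against that in the subjective day (x axis) for the 689 genes with an unadjusted day p below 0.05, with the line of equal differences dashed. Most points lie nearer to 0 on the night axis than on the day axis, and 430 of 689 have the same sign in both.

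All 4 genes described by identifier kept the sign of their difference in the night, and each was smaller there. ENSRNOG00000000010 had 70.3, 48.8, 33.4 and 32.8 CPM at CT12, CT15, CT18 and CT21 in Group A and 28.4, 24.98, 36.3 and 47.1 CPM at the same times in Group B. Group A was thus high at the start of the night and Group B at its end, and the groups overlapped. The night difference was -0.44 on the log2 scale (unadjusted p = 0.0613 by edgeR), and the test of day against night gave an unadjusted p of 0.246 (adjusted 0.997).

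ENSRNOG00000007765 was low in both groups in the night, at 1.87 ± 1.82 CPM in Group A and 1.19 ± 1.40 CPM in Group B (SD, n = 4). Its night difference was -0.66 (unadjusted p = 0.47 by edgeR), and the difference of day minus night was -3.39 (unadjusted p = 0.0123, adjusted p = 0.997). The high values were thus seen in Group A at CT0, CT3 and CT6, and the test across all genes did not call a difference between day and night.

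ENSRNOG00000017969 had 103.4 ± 16.3 CPM in Group A and 118.2 ± 8.73 CPM in Group B in the night (SD, n = 4), a log2 difference of 0.20 (unadjusted p = 0.0407 by edgeR, adjusted p = 0.903). Its levels were higher in the night than in the day in both groups. ENSRNOG00000005003 had 166.9 ± 3.59 CPM in Group A and 175.5 ± 14.5 CPM in Group B in the night, a log2 difference of 0.07 (unadjusted p = 0.179 by edgeR). The adjusted p of day against night was 0.997 for both genes.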

How the data were processed

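Fetal SCN RNA was depleted of rRNA, enriched for polyA RNA, made into stranded libraries and sequenced by the authors. The deposited values are raw counts per Ensembl gene, produced by the authors after alignment to the rn6 assembly by HISAT2 2.1.0. The submitters' notes also name Salmon and StringTie, without saying which made this table. The annotation release is not given in the sources used here.

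Everything else was computed with R 4.3.3, edgeR 4.0.16, DESeq2 1.42.0 and limma 3.58.1. Each column was assigned to its sample through the letter and time in its name. CPM use TMM factors from all 16 libraries, except in the filter, where counts were scaled by the library totals alone. Group B was tested against Group A in the 8 day libraries with edgeR's quasi-likelihood test, without a time term, and with Benjamini-Hochberg adjustment over 13685 genes. The difference between day and night was tested as an interaction in all 16 libraries. The night comparison was also taken from the fit of all 16 libraries, with 1 shared spread. Correlations, principal components, per-time differences and limma intervals use log2 CPM with a prior count of 2. The p-values of the gene tests set the group difference against the spread between these litters. As each litter of a group is from its own time, that spread also holds any change with time. Depth of 10047500 to 18738585 counts sets the counting error.

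The comparison, lists and rules were chosen with earlier results of these data known. The rule for naming genes asked for 10 genes in each direction and for members of gene lists. Without symbols only 2 identifiers in each direction are given, and the gene lists (clock, neuropeptides, hormone targets, metabolism, markers) were not analysed. Alternatives were other size factors, other filters, DESeq2, circadian time as a block, thinning to the smallest total, a fit of all 16 libraries, each day library left out, and limma, the last added after the data were seen.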

Additional observations from a re-analysis of the deposited data

Results flagged for a closer look

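Within the groups of 4 libraries, 30 sets of values (library measures and the 4 genes described by identifier) were checked for a library far from the other 3, and 2 were found, where chance alone would give 1.5. Both concern the subjective night. ENSRNOG00000017969 had 127.7 CPM in the CT18 library of Group A, with the other 3 litters at 93.5 to 97.6 CPM. ENSRNOG00000005003 had 153.8 CPM in the CT15 library of Group B, with the other 3 litters at 181.7 to 184.4 CPM.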

How the results depend on the processing

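The number of genes called between the groups in the day was 0 with both other size factors, with at least 10 counts in every library, with thinning, with all 16 libraries in one fit and with limma (lowest adjusted p from 0.416 to 0.74). It was 12 with DESeq2, 4 with no filter on genes (1 higher and 3 lower in Group B, lowest adjusted p = 3.06e-04), and 0 to 2 with each day library left out. With circadian time as a replicate block it was 1, ENSRNOG00000007765 (adjusted p = 0.0137). The deviations of litters sampled at the same time correlated at 0.022 (CT0), 0.070 (CT3), -0.092 (CT6) and 0.169 (CT9), so these values do not show that the times pair the litters. The number of genes that differed between day and night in the effect of the group was 2 with no filter, 1 with DESeq2 and 0 in the other alternatives, each day library left out included (0 to 0). Why no filter and DESeq2 gave more calls was not tested. Without a filter 1058 genes had an unadjusted day p below 0.05, and 992 for day against night. Of the 689 genes with an unadjusted day p below 0.05, 224 stayed there with each library left out in turn. The 4 genes described by identifier kept their direction in all alternatives. ENSRNOG00000000010 was called in 2 of 17 (adjusted p from 7.13e-05 to 0.996) and ENSRNOG00000007765 in 4 of 16 (3.06e-04 to 0.996), having too few counts for the filter of 10, while ENSRNOG00000017969 and ENSRNOG00000005003 were called in 0 of 17 each (lowest adjusted p = 0.0518 and 0.0768). The gene lists could not be run under any alternative for want of symbols.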
